A study of Rattus norvegicus with 48 samples.

Results

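Serum miRNAs of ZDF rats that received insulin were compared with those of ZDF rats that received an anti-sclerostin antibody. The comparison used every serum library of these treatments that the labels place in the ZDF group, 4 for insulin and 4 for anti-sclerostin, out of 32 serum and 16 ulna bone libraries (48 in all). ZDF fa/fa rats are homozygous for a mutation of the leptin receptor and serve as a model of type 2 diabetes. All rats of both groups were male, ate a high-fat and high-carbohydrate chow and carried a drilled defect of the femur midshaft, so these features were shared. The serum was taken after 12 weeks of treatment with either insulin or anti-sclerostin. A placebo-treated ZDF group (n = 5) and a placebo-treated WT group of lean rats (n = 5) were used only for levels set beside the treated groups. Small RNA was extracted from 100 µL of serum, so each value is a share of cell-free serum miRNA and does not tell release by more cells from more release per cell.

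MiRNAs are short RNAs that silence mRNAs, mainly through base pairing of the seed, bases 2 to 8 of the mature strand. In serum they are carried in vesicles and protein complexes, and much of the pool comes from blood cells, of which red cells are rich in miR-451 and miR-486 and can release them when they lyse. Sclerostin is an inhibitor of Wnt signaling that osteocytes secrete, and an antibody against it raises bone formation. Insulin lowers blood glucose and acts on liver, muscle and fat, and osteoblasts carry its receptor too. In this study, however, the paper reports that glucose stayed raised in ZDF rats under every treatment, insulin included. It cites earlier glycosylated hemoglobin values for a metabolic recovery under insulin.

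The mature sequences of the miRNAs on which the comparison turned are given from RefSeq (GRCr8), which held 123 of the 141 miRNAs tested and 37 of the 41 that differed. rno-miR-15a-5p, rno-miR-30e-3p, rno-miR-200a-3p and rno-miR-378b had no entry. Sequences run 5′ to 3′ and capitals mark the seed. The first set was higher under insulin, and the let-7 seed GAGGUAG was shared by rno-let-7i-5p and rno-miR-98-5p:
rno-miR-451-5p: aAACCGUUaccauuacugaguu
rno-miR-144-5p: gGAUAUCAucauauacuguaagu
rno-miR-144-3p: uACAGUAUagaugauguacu
rno-miR-16-5p: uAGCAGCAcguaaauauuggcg
rno-miR-106b-3p: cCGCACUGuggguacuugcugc
rno-miR-93-5p: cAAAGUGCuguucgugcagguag
rno-miR-25-5p: aGGCGGAGacacgggcaauugc
rno-miR-27a-5p: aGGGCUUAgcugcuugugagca
rno-let-7i-5p: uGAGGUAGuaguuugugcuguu
rno-miR-98-5p: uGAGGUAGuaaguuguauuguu

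The next set was lower under insulin. The seed AGCACCA was shared by the 3 miR-29 members and AGUGCAA by both miR-130 members, whereas rno-let-7f-5p carried the let-7 seed of the set above:
rno-miR-29a-3p: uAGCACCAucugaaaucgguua
rno-miR-29b-3p: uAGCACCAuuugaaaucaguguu
rno-miR-29c-3p: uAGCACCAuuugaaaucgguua
rno-miR-130a-3p: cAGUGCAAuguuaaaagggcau
rno-miR-130b-3p: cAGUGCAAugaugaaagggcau
rno-miR-24-3p: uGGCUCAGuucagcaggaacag
rno-miR-22-3p: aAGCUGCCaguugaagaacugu
rno-miR-138-5p: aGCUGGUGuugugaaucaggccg
rno-let-7f-5p: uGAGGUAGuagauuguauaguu

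In GRCr8, the miR-144 and miR-451 strands lie within 198 bases of each other on chromosome 10, at chr10:63459409-63459606 on the plus strand. The miR-106b-25 cluster covers 472 bases at chr12:22156652-22157123 on the minus strand. Rno-miR-29a-3p and one of the 2 loci of rno-miR-29b-3p lie within 397 bases at chr4:60617968-60618364 on the minus strand. The 3 miR-29 members differ at 1 to 4 of 22 positions. Reads of such close relatives can be shared in counting, so their counts are not fully independent.

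The reads counted on miRNAs numbered 60344 to 113163 per insulin library and 28015 to 150605 per anti-sclerostin library (exact permutation p = 0.514, two-sided). The share of all reads that fell on miRNAs was 1.02% to 1.62% under insulin. It was 0.536%, 2.28%, 2.96% and 0.529% in anti-sclerostin libraries 1 to 4, so that libraries 2 and 3 stood apart from libraries 1 and 4. The miRNA counts divided in the same way. Their chi-squared statistic, divided by its degrees of freedom, was 21.0 between libraries 2 and 3 and 26.3 between libraries 1 and 4, against 68.8 to 149.5 across these pairs and 14.4 to 40.4 among the insulin libraries. The number of calls, and the medians of several lists, are therefore also given without either pair. No 2 libraries held the same values or agreed within counting noise.

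Of 763 miRNAs listed, 435 had a read in these 8 libraries and 141 passed the filter on low counts, which held 99.1% of the miRNA reads. Levels are CPM, miRNA reads scaled to a common library size after TMM normalization, and FDR is the Benjamini-Hochberg adjusted p of edgeR's quasi-likelihood test. At FDR < 0.2, 41 miRNAs differed (29.1% of those tested), of which 18 were higher under insulin (12.8%) and 23 lower (16.3%). The size of these changes was 0.70 to 3.03 on the log2 scale (median 1.17), and the median over all 141 was −0.09. The number was 11 at FDR < 0.1 and 1 at FDR < 0.05, which was rno-miR-451-5p. In 19 miRNAs (13.5% of those tested) the groups did not overlap, with insulin above anti-sclerostin in 10 and below it in 9, and for each of them the exact permutation p was 0.0286, the smallest that 4 against 4 allows.

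**Figure D1:**
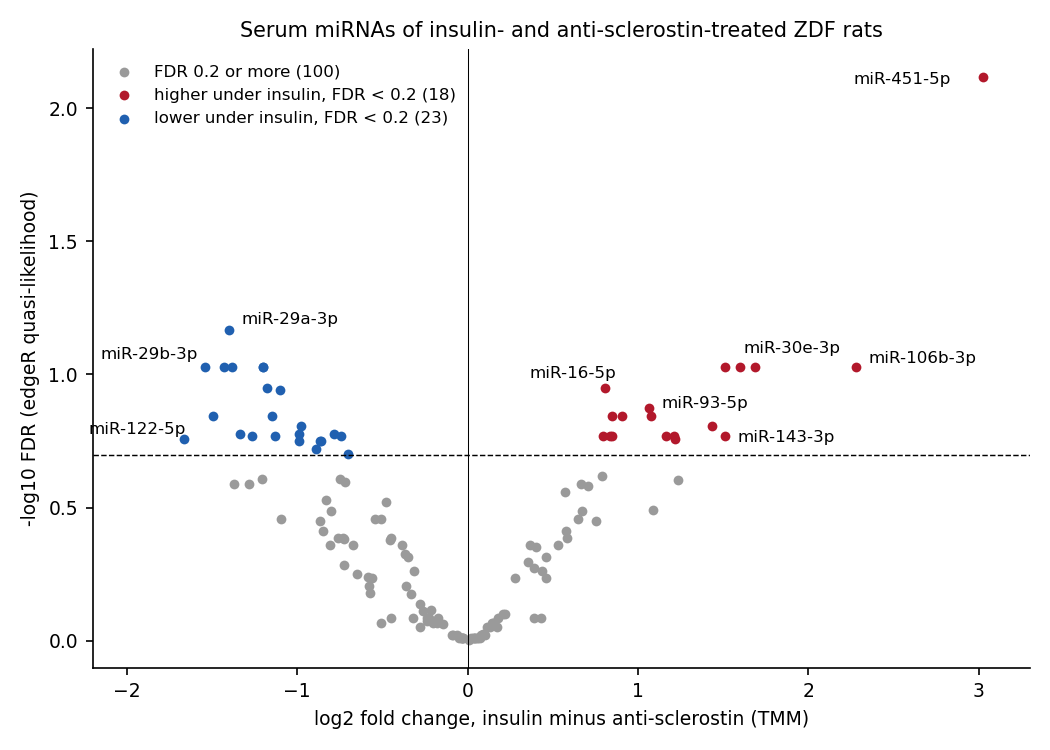
Each point is 1 of 141 serum miRNAs. The horizontal axis is the log2 fold change (insulin minus anti-sclerostin, TMM), the vertical axis is −log10 of the FDR, and the dashed line marks FDR 0.2. Rno-miR-451-5p, at 3.03, lies far above the other 40 miRNAs past the line.

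The number of calls rested on single rats. It was 1 without insulin library 1 or insulin library 3, 2 without anti-sclerostin library 2, 14 without anti-sclerostin library 3, 15 without insulin library 4 and 25 without anti-sclerostin library 4. It was 34 without insulin library 2 and 52 without anti-sclerostin library 1. All 41 kept their direction with any single library left out. They were chosen on these same libraries, so this was largely set by the choice and is no separate evidence of direction. Of the 41, 23 turned with the hemolysis covariate described below. With the other added controls as the scale 4 turned, and without anti-sclerostin libraries 2 and 3 it was 3. The split depended on the scale: 19 were higher and 18 lower with RLE factors, 7 and 40 with plain miRNA read totals, 1 and 0 per read of the extraction controls, and 11 and 0 per read of the other added controls. The last 3 scalings moved the median of all tested miRNAs by −0.39, 0.28 and 0.86, so the changes below are relative to the bulk of serum miRNAs and not absolute amounts.

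The red cell miRNAs formed the clearest group that was higher under insulin. Rno-miR-451-5p, which is made in the erythroid lineage and accumulates in red cells, was at 104318, 117931, 165669 and 179732 CPM in the insulin libraries. In the anti-sclerostin libraries it was at 32932, 9116, 7924 and 19832 CPM. Every insulin library thus lay far above the highest anti-sclerostin library, and the ratio of the group means was 8.13. The log2 fold change was 3.03 (standard error 0.48, FDR 0.00767), and the call held with each library left out (2.80 to 3.70).

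Rno-miR-144-3p and rno-miR-144-5p, the strands of a hairpin transcribed with miR-451, moved the same way. Rno-miR-144-5p was at 860.2, 549, 981 and 915 CPM under insulin and at 505, 226, 150.4 and 338 CPM under anti-sclerostin (log2 fold change 1.51, standard error 0.43, FDR 0.0942). Rno-miR-144-3p was at 6193, 8165, 10255 and 9359 CPM against 5556, 1136, 1017 and 5007 CPM (1.43, standard error 0.55, FDR 0.156). Neither strand overlapped between the groups, but anti-sclerostin libraries 1 and 4 were nearer to insulin than libraries 2 and 3. Rno-miR-486, a further red cell miRNA that muscle expresses too, was at 181939, 114285, 138713 and 120927 CPM against 153546, 14752, 15265 and 77554 CPM. Its groups overlapped because anti-sclerostin library 1 was within the insulin range (log2 fold change 1.09, FDR 0.324), and with the hemolysis covariate it passed as lower (−2.84, FDR 0.136).

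Of the 4 listed red cell miRNAs, 3 were higher and 1 did not pass, with a median of 1.47 against −0.09 for all tested, of which 12.8% were higher. The median was 3.19 without anti-sclerostin libraries 1 and 4 (4 of 4 higher) and 0.97 without libraries 2 and 3 (3 of 4 higher). Their summed level was 240930 to 315617 CPM under insulin and 24357 to 192539 CPM under anti-sclerostin, without overlap. The hemolysis ratio, the log2 ratio of rno-miR-451-5p to rno-miR-23a-3p reads that is used to judge red cell lysis, was 3.18 to 3.79 under insulin and −0.93 to 1.60 under anti-sclerostin (difference 3.59, exact permutation p = 0.0286). It uses rno-miR-451-5p and is no separate measurement. It was −0.49 to 1.41 in the placebo-treated ZDF rats. Since the ratio did not overlap between the treatments, red cell lysis and treatment cannot be told apart for miRNAs that follow it. With the ratio as a covariate, 24 miRNAs passed (12 higher, 12 lower), only 2 of the 41 were among them in the same direction, and 23 of the 41 turned. This fit compares the treatments at ratios that libraries of both groups did not share. Within groups the ratio varied mainly under anti-sclerostin (SD 1.16 against 0.25 under insulin). The signs and calls of this fit, here and below, are therefore no adjusted treatment effects.

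**Figure D2:**
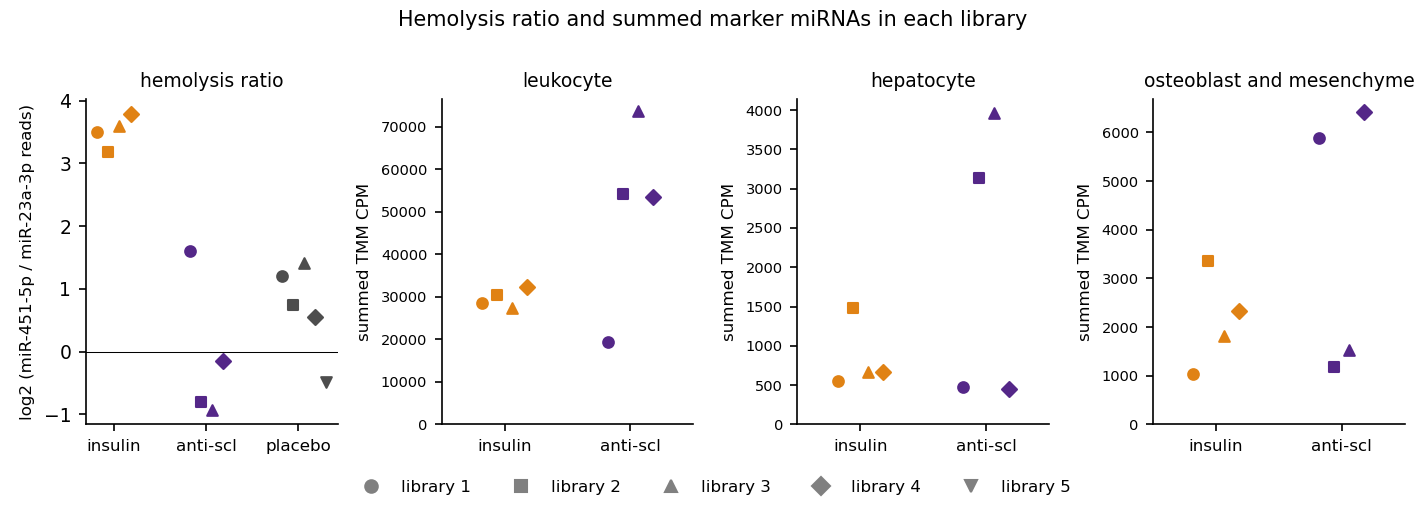
The first panel gives the hemolysis ratio (log2 of rno-miR-451-5p to rno-miR-23a-3p reads) in 4 insulin, 4 anti-sclerostin and 5 placebo-treated ZDF libraries. The other panels give the summed TMM CPM of leukocyte, hepatocyte, and osteoblast and mesenchyme miRNAs, with 1 marker shape per library number. All 4 insulin libraries have a ratio of 3.18 or more, and anti-sclerostin libraries 2 and 3 lie apart from 1 and 4 in the hepatocyte and mesenchyme panels.

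Part of the miR-15/16 family was also higher under insulin. Rno-miR-16-5p, which limits cell cycle genes and is plentiful in red cells, was at 85299.9, 85059, 114188 and 105201 CPM against 50845, 49468, 59168 and 63376 CPM. The log2 fold change was modest at 0.81 (standard error 0.26, FDR 0.113), yet its groups did not overlap and its replicates were close. Its relative rno-miR-15a-5p followed at 0.85 (FDR 0.143), also without overlap. Of 5 tested members of the miR-15/16 family, 2 were higher and 3 did not pass (median 0.58), beside 12.8% higher among all tested.

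The miR-106b-25 cluster lies in an intron of Mcm7 and is related to the miR-17-92 cluster. Rno-miR-106b-3p was at 876, 282, 817 and 477 CPM under insulin and at 303, 82.7, 53.1 and 141 CPM under anti-sclerostin (log2 fold change 2.28, standard error 0.59, FDR 0.0942). Only insulin library 2 and anti-sclerostin library 1 overlapped. Rno-miR-93-5p was at 50407, 39869, 65996 and 53029.5 CPM against 33908, 17548, 13346 and 35359 CPM, again with libraries 2 and 3 of the anti-sclerostin group lowest (1.06, standard error 0.37, FDR 0.134). Rno-miR-25-5p was higher too (1.21, FDR 0.170), whereas rno-miR-25-3p, at 48541 to 92948 CPM against 7119.6 to 76706 CPM, did not pass (1.23, standard error 0.64, FDR 0.250). In all, 3 of the 6 cluster members were higher with a median of 1.14, beside 12.8% higher among all tested. With the hemolysis ratio as a covariate none was higher and 1 was lower, and 1 was higher without anti-sclerostin libraries 2 and 3 (median 0.86). None of the 6 tested of 10 members of the miR-17-92 cluster passed (median 0.36, range 0.03 to 0.58), and rno-miR-92a-3p, which has the seed of rno-miR-25-3p, was at 0.37 on the log2 scale (FDR 0.437). Without anti-sclerostin libraries 2 and 3, however, 4 of the 6 miR-17-92 members were higher (median 0.89). In that setting the medians of the 2 clusters were thus close, at 0.86 and 0.89 against 0.07 for all tested, although more miR-17-92 members passed. Without libraries 1 and 4 the miR-17-92 median was 0.16 and none passed.

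**Figure D3:**
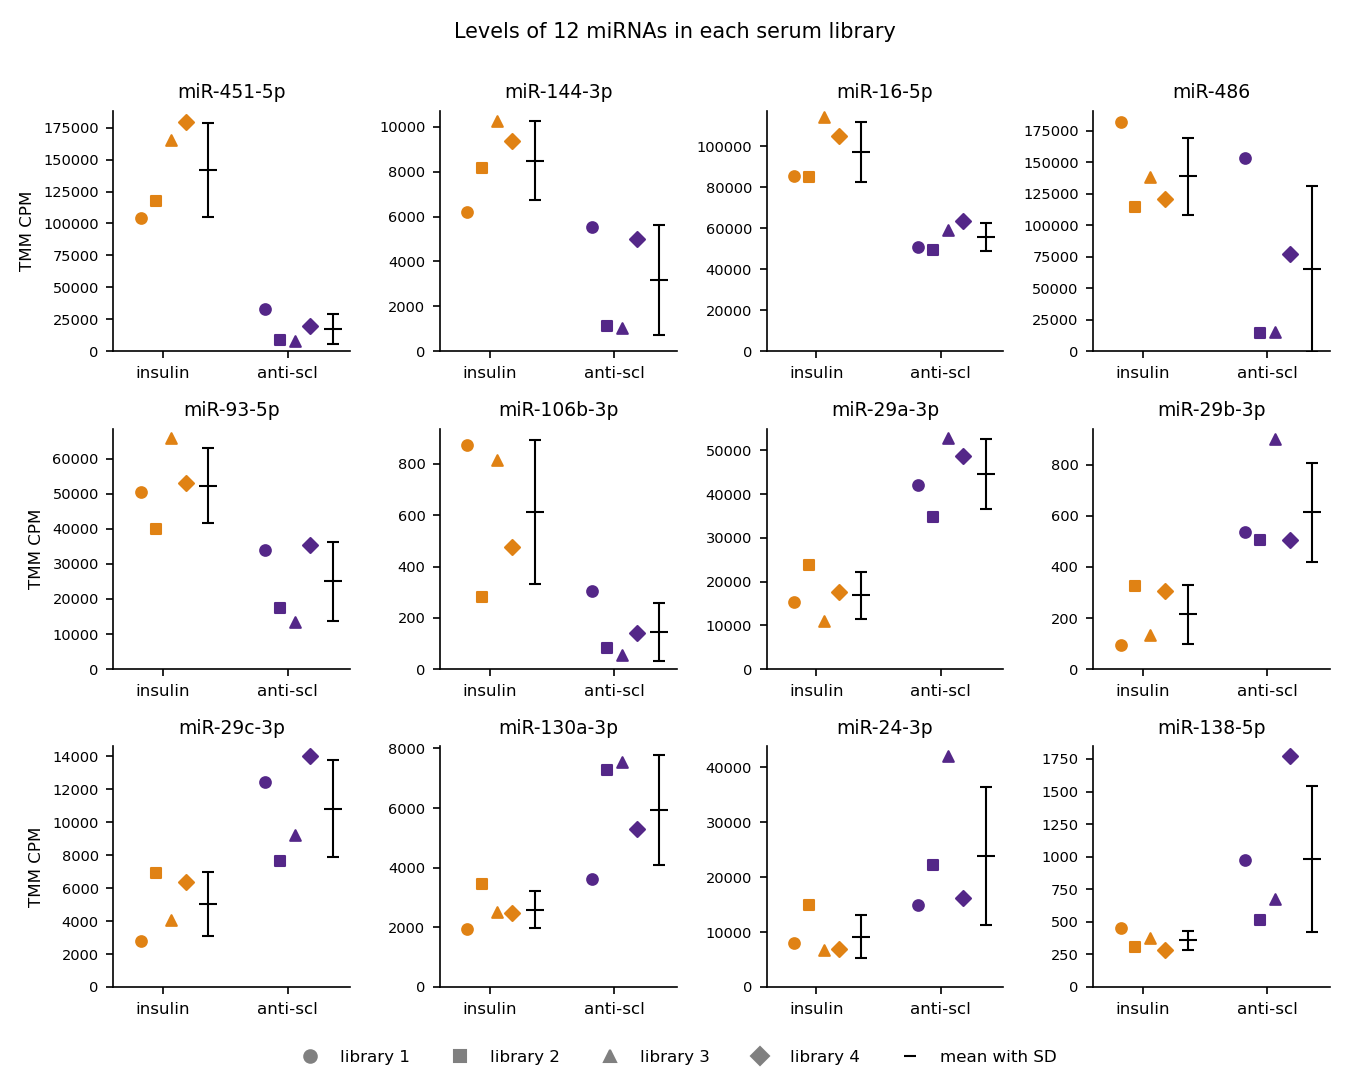
TMM CPM of 12 miRNAs in each insulin and each anti-sclerostin library (n = 4 each), with 1 marker shape per library and the mean with SD beside the points. Rno-miR-486 and rno-miR-106b-3p overlap between the groups and the other 10 miRNAs do not. The red cell miRNAs of anti-sclerostin libraries 2 and 3 are the lowest.

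Further miRNAs were higher under insulin. Rno-miR-27a-5p, the minor strand of a hairpin of the miR-23a cluster, was at 845, 479, 306 and 209.7 CPM against 236, 116, 150.4 and 84.4 CPM, and the groups overlapped at a single library of each side (log2 fold change 1.69, standard error 0.51, FDR 0.0942). The major strand, rno-miR-27a-3p, did not pass (−0.45, FDR 0.421). Rno-miR-30e-3p was at 516, 465, 766 and 819.6 CPM against 370.4, 165, 115 and 253 CPM, without overlap (1.60, standard error 0.44, FDR 0.0942). It was the only 1 of 7 members of the miR-30 family to pass, and rno-miR-30e-5p from the same hairpin was at 0.15. Rno-miR-26b-5p was at 3139 to 4086 CPM against 1229 to 2841 CPM, without overlap (0.91, standard error 0.33, FDR 0.143).

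Rno-miR-143-3p, which vascular smooth muscle expresses strongly, was at 4942, 22032, 3677 and 13648 CPM against 7745, 1853, 1804 and 4276 CPM. Both groups were wide and overlapped (1.51, standard error 0.64, FDR 0.170). Its cluster partner rno-miR-145-5p did not pass, at 1642 to 7222 CPM against 2255 to 3179 CPM (0.65, FDR 0.350). Rno-miR-126a-3p, from an intron of the endothelial gene Egfl7, was at 1799, 2999, 2932 and 3031 CPM against 1717, 1318, 1008 and 2194 CPM, with insulin library 1 inside the anti-sclerostin range (0.80, standard error 0.34, FDR 0.170). It was 1 of 4 tested endothelial miRNAs to pass, beside 12.8% higher among all tested, and none of the 4 passed without anti-sclerostin libraries 2 and 3 (median −0.10 against 0.36).

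Lower under insulin, or higher under anti-sclerostin, were several miRNAs listed as regulators of bone formation. The miR-29 family represses collagens and other matrix genes and, in osteoblasts, inhibitors of Wnt signaling. Rno-miR-29a-3p was at 15264, 23862, 10949.9 and 17518 CPM under insulin and at 41956, 34766, 52871 and 48721 CPM under anti-sclerostin. Every anti-sclerostin library was above every insulin library, and the mean was 2.64 times as high. The log2 fold change was −1.40 (standard error 0.32, FDR 0.0683), the second smallest p of the comparison, and the call was lost without insulin library 1 (FDR 0.210) or insulin library 3 (FDR 0.272).

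The other members of the family moved with it. Rno-miR-29b-3p was at 93.8, 324, 133 and 305 CPM against 539, 507, 902 and 506 CPM (−1.54, standard error 0.46, FDR 0.0942). Rno-miR-29c-3p was at 2815, 6940.4, 4035 and 6367 CPM against 12459, 7616, 9198 and 14037 CPM (−1.10, standard error 0.37, FDR 0.114). All 3 members were therefore lower under insulin without overlap, except that the log2 fold change of rno-miR-29c-3p was 0.07 when the other added controls set the scale. For rno-miR-29a-3p and rno-miR-29c-3p, anti-sclerostin library 2 was the nearest to insulin, unlike for the red cell miRNAs.

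Rno-miR-138-5p, which restrains osteoblast differentiation and is plentiful in brain, was at 454, 309.7, 378 and 286 CPM under insulin and at 976, 513, 672 and 1772 CPM under anti-sclerostin. The groups did not overlap and anti-sclerostin library 4 was highest (−1.43, standard error 0.44, FDR 0.0942). Rno-miR-24-3p, of the miR-23a and miR-23b clusters, was at 8039, 14923, 6711 and 6977 CPM against 14950.5, 22192, 41992 and 16146 CPM. The groups did not overlap, but insulin library 2 nearly reached anti-sclerostin library 1 (−1.38, standard error 0.42, FDR 0.0942). In all, 5 of the 9 tested of 12 listed regulators of bone formation were lower, 1 was higher (rno-miR-27a-5p) and 3 did not pass (rno-miR-21-5p, rno-miR-23a-3p and rno-miR-27a-3p), with a median of −1.10. Of all tested miRNAs, 16.3% were lower and 12.8% higher. The study had also named rno-miR-29b-3p, rno-miR-24-3p and rno-miR-138-5p for anti-sclerostin against placebo, from these same anti-sclerostin libraries. Rno-miR-29a-3p and rno-miR-29c-3p are close relatives of rno-miR-29b-3p that can share its reads. The count of lower members is therefore no independent evidence of direction. The summed level of the 12 listed regulators was 62277.6 to 96871 CPM under insulin and 116305 to 170499 CPM under anti-sclerostin. With the hemolysis ratio as a covariate, none of the 9 passed and their median was 0.09, against 0.17 for all tested. None passed per extraction control read either (−0.72 against 0.19), and with the other added controls as the scale none was lower and the median was 0.07 against 0.77. Without anti-sclerostin libraries 1 and 4 the median was −0.71 (6 of 10 lower), and without libraries 2 and 3 it was −0.65 (4 of 9 lower).

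**Figure D4:**
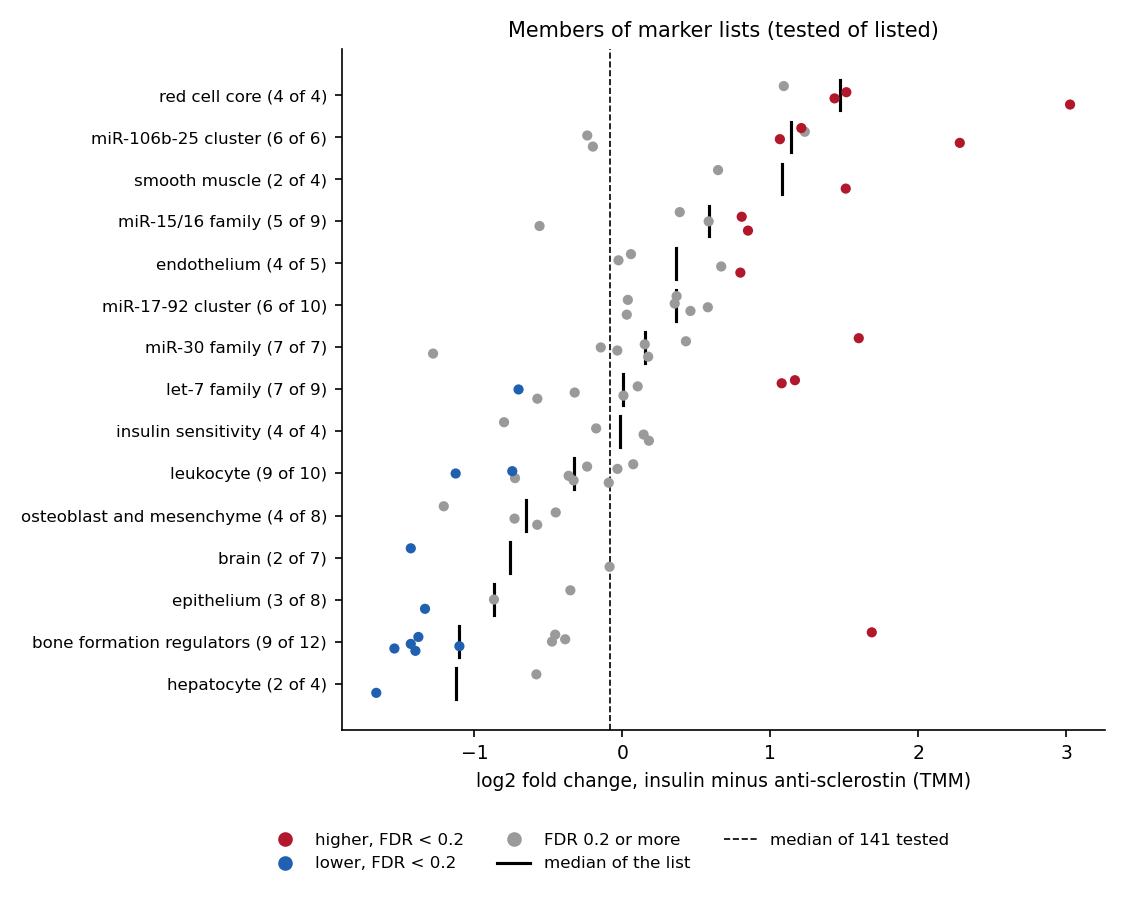
Log2 fold changes (insulin minus anti-sclerostin, TMM) of the tested members of 15 marker lists, with the number tested of the number listed. Points are miRNAs, short bars are list medians and the dashed line is the median of the 141 tested. Red cell miRNAs lie at 1.09 to 3.03, and 5 of 9 regulators of bone formation lie at −1.10 or below.

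Several other miRNAs without a tie to 1 tissue were lower under insulin. Rno-miR-130a-3p was at 1939, 3449, 2503 and 2478 CPM against 3637, 7279.6, 7553 and 5288 CPM, without overlap (−1.20, standard error 0.34, FDR 0.0942). Rno-miR-130b-3p, which differs from it at 2 of 22 positions, was also lower (−0.87, FDR 0.178), although anti-sclerostin library 1 lay below all insulin libraries. Rno-miR-22-3p was at 5177, 13599, 9377 and 9245 CPM against 12796, 26934, 24923 and 21238 CPM, with insulin library 2 above anti-sclerostin library 1 (−1.20, standard error 0.37, FDR 0.0942). Rno-miR-132-3p, which neuronal activity induces, was at 169 to 324 CPM against 337 to 667 CPM, without overlap (−1.18, standard error 0.38, FDR 0.113). Rno-miR-339-3p was at 153 to 297 CPM against 309 to 716 CPM (−1.15, standard error 0.41, FDR 0.143), and rno-miR-378a-3p, from an intron of the gene for PGC-1β, at 5761 to 10544 CPM against 10674 to 16886 CPM (−0.78, standard error 0.31, FDR 0.167). Both were without overlap.

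MiRNAs of liver and gut were lower under insulin through anti-sclerostin libraries 2 and 3 alone. Rno-miR-192-5p, of liver and gut epithelium, was at 4176, 5547, 1491 and 3431 CPM against 4748, 16804, 15610.0 and 3910.0 CPM (−1.49, standard error 0.55, FDR 0.143). Rno-miR-122-5p, which makes up much of the miRNA of hepatocytes, was at 172, 549, 276 and 172 CPM against 236, 1241, 1989.9 and 141 CPM (−1.66, standard error 0.74, FDR 0.174). Only anti-sclerostin libraries 2 and 3 were above the insulin range in both cases. Without them the log2 fold change of rno-miR-122-5p turned to 0.76. Rno-miR-223-3p, a myeloid miRNA, was at 13360.5 to 16176 CPM in all insulin libraries and at 7172, 36608, 49749 and 37047 CPM under anti-sclerostin, where library 1 lay below and the other 3 above all insulin libraries (−1.13, standard error 0.47, FDR 0.170).

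Rno-miR-375-3p, which pancreatic islets express strongly, was at 1455, 1126, 939.7 and 2154 CPM against 4007, 3138, 1866 and 2166 CPM (−0.98, standard error 0.38, FDR 0.156). Its groups overlapped only through insulin library 4. Of the leukocyte miRNAs, 2 of 9 tested were lower, rno-miR-223-3p and rno-miR-146a-5p (−0.74, FDR 0.170), and the median of the list was −0.33. This share of lower members was near that of all tested miRNAs (16.3%), and the median was 0.08 without anti-sclerostin libraries 2 and 3 (1 higher, 1 lower). Of the epithelial miRNAs, 1 of 3 tested was lower, rno-miR-200a-3p (−1.33, FDR 0.167), which was above the insulin libraries in anti-sclerostin libraries 1 and 4 only. Of all tested miRNAs, 16.3% were lower. The hepatocyte list had 2 of 4 members tested, and rno-miR-802-5p did not pass (−0.58, FDR 0.578). The list median of −1.12 became −2.38 without anti-sclerostin libraries 1 and 4 (3 of 3 lower). It turned to 1.06 without libraries 2 and 3 (1 of 2 higher). The log2 fold change of rno-miR-802-5p was 1.36 without anti-sclerostin libraries 2 and 3 (FDR 0.145) and 5.06 with the hemolysis covariate (FDR 0.130).

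Markers of muscle and mesenchyme separated the anti-sclerostin libraries in the other direction. The summed level of the 10 striated muscle miRNAs was 16331 and 6104 CPM in anti-sclerostin libraries 1 and 4 and 116 and 159 CPM in libraries 2 and 3, and 1236 to 7658 CPM under insulin. Nearly all of it was rno-miR-133a-3p, while rno-miR-206-3p had no read in any of the 8 libraries. The median of the tested striated muscle members was −0.51 (1 tested, which did not pass). It was 4.86 without libraries 1 and 4 (1 of 1 higher) and −1.40 without libraries 2 and 3 (1 of 2 lower). The 8 osteoblast and mesenchyme miRNAs summed to 5893 and 6414 CPM in libraries 1 and 4, to 1186 and 1530.0 CPM in libraries 2 and 3 and to 1032 to 3351 CPM under insulin. None of the 4 tested differed (median −0.65), the median turned to 0.64 without libraries 1 and 4 (2 of 5 higher) and was −1.33 without libraries 2 and 3 (5 of 7 lower), and rno-miR-100-5p was at 741, 49.6, 35.4 and 731 CPM under anti-sclerostin and at 125 to 343 CPM under insulin. The part of this division of the anti-sclerostin rats in the results above was not tested beyond leaving out each pair. Without libraries 1 and 4, 85 of 162 tested miRNAs passed (46 higher, 39 lower), with 37 of the 41 among them in the same direction. Without libraries 2 and 3, 52 of 154 passed (26 higher, 26 lower), with 20 of the 41 among them in the same direction.

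The insulin sensitivity and let-7 lists had medians near 0 in the main fit. None of the 4 insulin sensitivity miRNAs passed (median −0.02), including the abundant rno-miR-103-3p and rno-miR-107-3p, which share a seed and repress caveolin. Of 7 tested let-7 members, rno-let-7i-5p (1.08, FDR 0.143) and rno-miR-98-5p (1.17, FDR 0.170) were higher and rno-let-7f-5p was lower (−0.70, FDR 0.199), with a median of 0.01. Among all tested miRNAs, 12.8% were higher and 16.3% lower. The let-7 median was 1.02 without anti-sclerostin libraries 2 and 3 (3 of 8 higher, 1 lower). It was −0.42 without libraries 1 and 4 (2 of 8 higher, 1 lower) and 1.56 with the hemolysis covariate (1 of 7 higher). Rno-let-7f-5p turned to 0.17 with the other added controls as the scale. Its sequence differs from that of rno-miR-98-5p at 3 of 22 positions.

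Members with the same seed did not all behave alike. Of 20 seeds held by more than 1 tested miRNA with a RefSeq sequence, AGCACCA (3 of 3 lower) and AGUGCAA (2 of 2 lower) were those in which every member with a sequence passed. Rno-miR-301a-3p, a relative of the miR-130 members for which no sequence was given, was tested and did not pass (0.79, FDR 0.240). Of the 4 miRNAs with the seed AAAGUGC, only rno-miR-93-5p passed, and rno-miR-17-5p, rno-miR-20a-5p and rno-miR-106b-5p did not. Of 19 hairpins with both strands tested, 9 had a strand that passed. Both strands of miR-144 were higher and both strands of miR-22 and miR-339 were lower. In 6 of these 9 the strands had the same sign, whereas those of miR-27a, miR-93 and miR-106b had opposite signs. That share was near the one over all 19 hairpins, of which 12 had strands of the same sign.

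The most abundant miRNAs were the background to these changes. Rno-miR-191a-5p had the highest mean level and was at 88351 to 172398 CPM under insulin and at 71015 to 154239 CPM under anti-sclerostin (log2 fold change 0.12, standard error 0.35, FDR 0.891). Of the 8 most abundant miRNAs, rno-miR-451-5p, rno-miR-16-5p and rno-miR-93-5p passed, and rno-miR-486, rno-miR-92a-3p, rno-miR-25-3p and rno-miR-19b-3p did not either. Rno-miR-19b-3p was at 26629 to 52190.3 CPM against 18959.5 to 33758 CPM (0.35, FDR 0.506).

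Levels were also set beside those of placebo-treated ZDF and WT rats, in a common TMM scale over the 4 groups. The mean of the placebo-treated ZDF rats lay between the means of both treated groups in 14 of the 18 miRNAs that were higher under insulin and in 19 of the 23 that were lower. This is a description without a test. The 41 were chosen because the treated groups lay apart, so a place between their means was partly set by that choice. The counts are thus no evidence of opposite changes from placebo, and the share over all tested miRNAs was not counted. Rno-miR-29a-3p had medians of 18692 CPM under insulin, 32158 CPM under placebo and 44685 CPM under anti-sclerostin, and the ranges of the 3 ZDF groups did not overlap. Rno-miR-451-5p was at 114852 to 190640 CPM under insulin, above all 5 placebo-treated ZDF rats (18838 to 50618 CPM), whose range overlapped that of anti-sclerostin (8854 to 33674 CPM). In WT rats it ranged from 14619 to 163668 CPM.

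The place of the placebo-treated ZDF rats was different for other miRNAs. Rno-miR-138-5p was at 616 to 1690.2 CPM under anti-sclerostin, above every placebo-treated ZDF rat (259 to 600.3 CPM), whose range held that of insulin (302 to 559 CPM). Rno-miR-126a-3p was at 1127 to 2093 CPM under anti-sclerostin, 2216 to 3215 CPM under insulin and 3031 to 5153 CPM under placebo. Rno-miR-375-3p had medians of 1444 CPM under insulin, 2927 CPM under anti-sclerostin, 3290.4 CPM under placebo and 383 CPM in WT rats. Rno-miR-27a-5p had medians of 397 CPM under insulin and 481 CPM in WT rats, against 154 CPM under anti-sclerostin and 169.9 CPM under placebo.

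**Figure D5:**
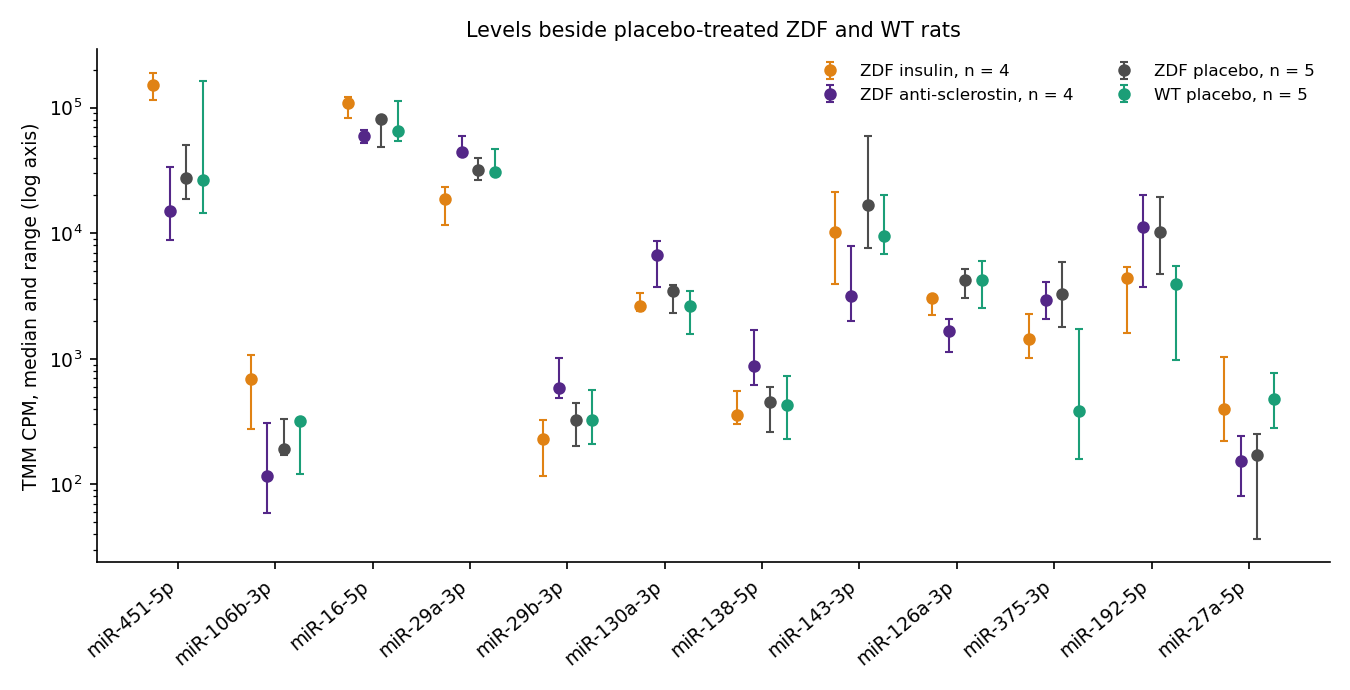
Median and range of TMM CPM (log axis) of 12 miRNAs in ZDF rats under insulin, anti-sclerostin or placebo and in placebo-treated WT rats. Points are medians and bars run from the lowest to the highest library. The placebo median of rno-miR-29a-3p, 32158 CPM, lies between those of the treated groups, and that of rno-miR-143-3p lies above both.

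Of the 12 miRNAs that the study had named for placebo-treated ZDF against WT rats, a choice made on libraries outside this comparison, 8 were tested here, 1 was higher under insulin (rno-miR-27a-5p), 3 were lower (rno-miR-192-5p, rno-miR-375-3p and rno-miR-122-5p) and 4 did not pass, among them rno-miR-320-3p (−0.54, FDR 0.350). Over all tested miRNAs the shares were 12.8% higher and 16.3% lower. For rno-miR-122-5p and rno-miR-192-5p, only anti-sclerostin libraries 2 and 3 exceeded the insulin range. Rno-miR-31a-5p was too rare for the test. It had 2 to 9 reads per insulin library and 4, 103, 50 and 2 reads in anti-sclerostin libraries 1 to 4. Rno-miR-122-3p had 5 to 17 reads under insulin and 3, 152, 112 and 3 reads under anti-sclerostin. The 7 named for anti-sclerostin against placebo were chosen on the 4 anti-sclerostin libraries used here, so their counts are no independent evidence of direction. Of these, 4 were lower under insulin, rno-miR-143-3p and rno-miR-126a-3p were higher and rno-miR-145-5p did not pass.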

How the data were processed

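Per the labels, RNA from 100 µL of serum was made into small RNA libraries with a kit for biofluids. The authors trimmed reads with cutadapt, dropped short ones and aligned the rest, using Bowtie and miRDeep2, first to a rat genome (Rnor 6.0) and then to rat miRBase. The deposited counts are their whole reads per mature miRNA, without normalization. The deposited RPM values scaled to all reads gave the library totals, and those scaled to miRNA reads were not used. Groups were taken from the treatment and group labels. Replicate numbers only name libraries.

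Counts were tested in R 4.3.3 with edgeR 4.0.16 (quasi-likelihood, legacy = TRUE, robust = FALSE, TMM) on the 8 libraries, after filterByExpr with a minimum count of 10. The study's own independent filtering was kept as an alternative. Standard errors were the log2 fold change divided by the root of the F statistic. Exact permutation tests used log2(CPM + 1) and were two-sided, with p-values of single miRNAs not adjusted. The depth of 28015 to 150605 miRNA reads sets the precision of rare miRNAs. P-values measure the spread between rats. Figures were drawn with matplotlib 3.10.9.

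The miRNAs named were the 12 with the smallest p in each direction at FDR < 0.2, up to 5 per direction without overlap, members of marker lists, miRNAs the study names in ZDF serum and the 8 most abundant. Members and lists were chosen with earlier results of these data known. Tried instead were RLE, plain totals, 2 kinds of added controls as library size, DESeq2 1.42.0, other filters, all serum groups in 1 fit, legacy = FALSE, robust = TRUE, the hemolysis ratio (pseudocount 0.5 or 5 reads) as a covariate, no red cell miRNAs, a pseudocount of 10 and each library left out. Leaving out both libraries of a pair was chosen after seeing the data. The test was tested on simulated data.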

Additional observations from a re-analysis of the deposited data

Results flagged for a closer look

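In 80 groups of 4 libraries (36 named miRNAs and 4 library measures in both treatments), 4 held a library whose gap to the nearest of the others, as a part of the whole range on the log2 scale, was above Dixon's 95% critical value. Chance gives about 1 in 20 groups. Rno-miR-29b-3p was high in anti-sclerostin library 3 (902 CPM against 506 to 539, gap 0.893 of the range). Its groups did not overlap, and leaving out the highest library of the higher group could not change that. Rno-miR-25-3p was low in insulin library 2 (48541 CPM against 85996 to 92948, 0.880). Rno-miR-19b-3p was low in anti-sclerostin library 4 (18959.5 CPM against 31147 to 33758, 0.860). Rno-miR-126a-3p was low in insulin library 1 (1799 CPM against 2932 to 3031, 0.936).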

How the results depend on the processing

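The number of miRNAs that differed was 41. It was 1 per extraction control read, 11 per read of the other added controls, 24 with the hemolysis ratio as a covariate, 1 at FDR < 0.05 and 85 without anti-sclerostin libraries 1 and 4, a choice made after seeing the data. Leaving out 1 library gave 1 to 52. The other filters, RLE, plain totals, DESeq2, all serum groups in 1 fit, the removal of red cell miRNAs and the removal of anti-sclerostin libraries 2 and 3 gave 29 to 52. The difference in the hemolysis ratio was 3.304 to 4.145 with 1 library left out, and its exact permutation p was 0.0571 with any 1 insulin library left out. The groups still did not overlap then. Since 3 against 4 libraries allow fewer splits, that p cannot be set beside the p of 4 against 4. The difference in the miRNA share of reads was −0.366 to 0.462 on the log2 scale with 1 library left out, and no exact permutation test of it passed.

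Of 860 values of named miRNAs under alternatives, 603 kept their side of the threshold and any direction they had. Of the rest, 203 kept their direction and no longer passed, 19 kept it and newly passed, and 35 turned. The 860 include exact permutation p-values with the alternative pseudocount, which have no direction. They also include settings with the same 41 calls as the main fit, such as robust = TRUE and filterByExpr with independent filtering. The 603 therefore overstate how stable the values were. The hemolysis ratio did not overlap between the treatments, so values with it as a covariate are no adjusted treatment effects. With the hemolysis covariate, the log2 fold change turned to −0.86 for rno-miR-106b-3p, −0.62 for rno-miR-30e-3p, −0.67 for rno-miR-144-5p, −1.49 for rno-miR-144-3p, −0.56 for rno-miR-93-5p, −0.27 for rno-let-7i-5p, −0.23 for rno-miR-15a-5p and −0.57 for rno-miR-143-3p. Rno-miR-486 and rno-miR-25-3p, which had not passed, turned to −2.84 and −2.81 and passed as lower (FDR 0.136 each), and rno-miR-802-5p turned to 5.06 and passed as higher (FDR 0.130). The log2 fold change turned to 0.41 for rno-miR-130a-3p and rno-miR-22-3p, 0.51 for rno-miR-24-3p, 0.52 for rno-miR-339-3p, 1.31 for rno-miR-192-5p, 0.0352 for rno-miR-378a-3p and 3.46 for rno-miR-122-5p. With the other added controls it turned to 0.0691 for rno-miR-29c-3p, 0.0801 for rno-miR-378a-3p, 0.19 for rno-miR-802-5p, 0.20 for rno-miR-320-3p and 0.91 for rno-miR-100-5p. With plain totals it turned to −0.0129 for rno-miR-92a-3p, −0.0301 for rno-miR-19b-3p and −0.28 for rno-miR-191a-5p. Without anti-sclerostin libraries 2 and 3 it turned to 0.76 for rno-miR-122-5p and 1.36 for rno-miR-802-5p (FDR 0.145), and without libraries 1 and 4 to 2.57 for rno-miR-100-5p (FDR 0.00127) and −0.17 for rno-miR-191a-5p. Rno-miR-191a-5p was at −0.0118 with all serum groups in 1 fit. With 1 library left out, rno-miR-100-5p ranged from −0.87 to 0.29 (above 0 without anti-sclerostin library 1 or 4), rno-miR-802-5p from −0.80 to 0.000342 (above 0 without anti-sclerostin library 2) and rno-miR-191a-5p from −0.14 (without insulin library 1) to 0.49. The cause was not tested. No paired analysis was possible because the labels give the groups no shared replicate numbers. Depth limited the test to 141 of 763 miRNAs.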

Other observations

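Rno-miR-200b-3p, an epithelial miRNA too rare for the test, was the only miRNA of the 763 with no read in all libraries of one group and a read in every library of the other. It was chosen after its values were seen. It had 0 reads in the 4 insulin libraries and 3, 8, 4 and 4 reads in anti-sclerostin libraries 1 to 4. Its observed level under anti-sclerostin was 5.03-fold that of a floor of 3 reads over the insulin group. The floor covers counting error of the insulin group only. It does not cover that of the few anti-sclerostin reads or the spread between rats, so the ratio is no lower bound.

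The hemolysis ratio was also high outside the insulin group, at 3.24 and 3.297 in WT placebo libraries 3 and 5 and at 4.29 in PTH-treated ZDF library 3.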
